A study of Mus musculus with 6 samples.

Results

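The gene Trp53, which encodes the transcription factor p53, and 9 genes that p53 activates were followed in E14 mouse embryonic stem cells (129/Ola background) during a block of protein synthesis. The 10 genes, Trp53, Mdm2, Cdkn1a, Ccng1, Plk2, Zmat3, Trp53inp1, Phlda3, Aen and Ei24, were taken by symbol from the 17485 gene rows of the count files, and all 10 passed the filter on low counts that left 12755 genes for testing. Cells grew on gelatin in serum with leukaemia inhibitory factor, and treatment began 24 h after seeding. The treated groups received cycloheximide, which stops the ribosome during elongation, at 250 µg/mL for 3 h or 6 h. The control group received the ethanol vehicle (0.007%) for 9 h, so the control was longer in its medium with vehicle than the treated cells were in theirs. Each group had 2 libraries of polyadenylated RNA. The labels do not say whether the 2 libraries came from separate cultures, and the p-values therefore measure only the spread between these libraries.

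p53 is made continuously in most cells and is held low because Mdm2, a ubiquitin ligase that p53 itself induces, marks it for destruction. When DNA damage or nucleolar stress stops Mdm2, p53 accumulates, binds its response elements and raises transcription of genes for cell cycle arrest, DNA repair and apoptosis. Both p53 and Mdm2 are short-lived proteins, so a block of translation acts on both sides of this loop. Embryonic stem cells carry much Trp53 mRNA, and their p53 has also been studied for its part in leaving the pluripotent state.

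A p53 response element is built from half-sites of 10 bases, usually 2 of them close together. Promoter windows of 300 bases (250 before and 50 after the annotated start) were available for 8 of the 10 genes from RefSeq (GRCm38.p6), and windows for Zmat3 and Trp53inp1 were not used here. A perfect match to the p53 half-site consensus, which reads the same on both strands, lay in the windows of 6 of the 8 genes, whereas 9.55% of the 27025 genes with such windows held one. No match was found for Plk2 or Phlda3, which says only that these letters are not in those windows. A pair of half-sites separated by at most 13 bases, with at most 1 mismatch over the pair, occurred in Cdkn1a and Ccng1 and in 0.718% of all genes. The matches are descriptions of sequence and not shown binding. They are printed 5′ to 3′ on the strand of the gene, with half-sites in capitals, to show the number and spacing of half-sites in each gene.
Cdkn1a, chr17:29090896-29090957, plus strand: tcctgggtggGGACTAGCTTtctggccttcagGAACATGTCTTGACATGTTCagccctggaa
Ccng1, chr11:40755452-40755491, minus strand: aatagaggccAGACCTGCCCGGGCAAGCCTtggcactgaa
Mdm2, chr10:117710925-117710954, minus strand: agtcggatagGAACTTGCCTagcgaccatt
Ei24, chr9:36797325-36797354, minus strand: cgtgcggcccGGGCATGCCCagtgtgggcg
Aen, chr7:78895927-78895956, plus strand: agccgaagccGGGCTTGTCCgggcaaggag
Trp53, chr11:69580274-69580303, plus strand: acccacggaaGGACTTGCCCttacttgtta

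In Cdkn1a the third half-site in capitals carries the single mismatch and directly adjoins the second. These sites lie just before the more upstream of the gene's annotated starts and 2.8 kb before the other, whose own window held no match. In Ccng1 the first half-site carries the mismatch. The half-site of Ei24 ended 1 base before the annotated start, that of Trp53 lay from base -75 to base -66, and that of Mdm2 from base -186 to base -177.

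**Figure D1:**
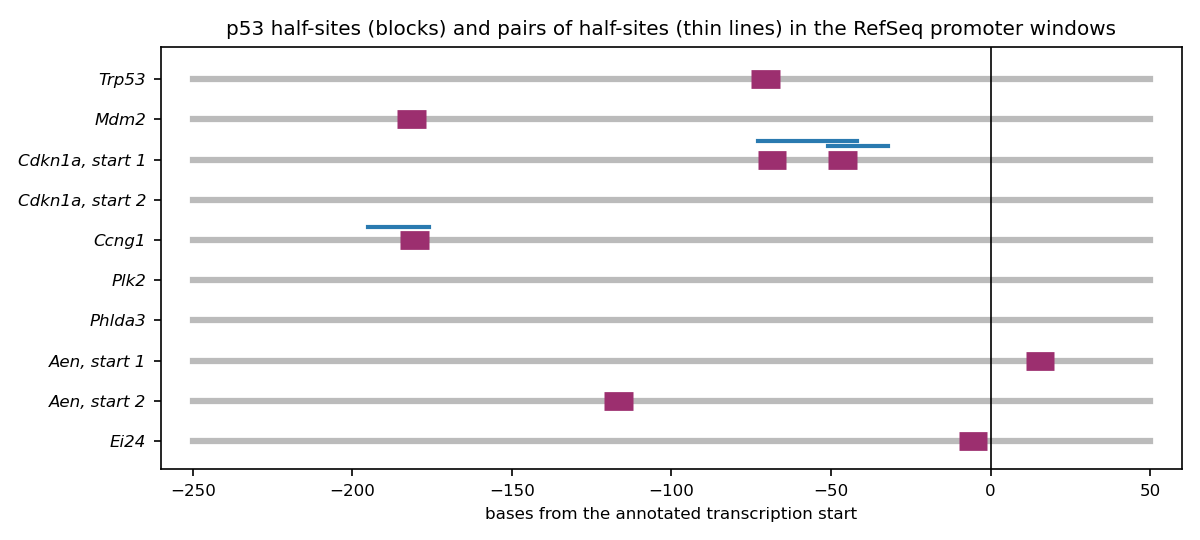
Position of p53 half-sites in the 300-base promoter windows of 8 genes, in bases from the annotated transcription start (x axis), with 1 row for each annotated start. Blocks are perfect half-sites and thin lines span pairs of half-sites with at most 1 mismatch; 6 of the 8 genes had a half-site, and pairs occurred in Cdkn1a and Ccng1.

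Library totals ranged from 9385447 to 27351079 counts, with both 6 h libraries the deepest. Values below are TMM-scaled CPM, counts relative to a library total adjusted by the trimmed mean of M values, which aligns libraries on the bulk of their genes. Changes were called at a Benjamini-Hochberg adjusted p under 0.05 from edgeR's quasi-likelihood test over all tested genes. It called 625 genes at 3 h against control (459 higher, 166 lower), 3703 at 6 h against control (1882 higher, 1821 lower) and 209 at 6 h against 3 h (58 higher, 151 lower). With library totals alone as the scale, the median log2 fold change of all genes moved by 0.23 at 3 h and by 0.36 at 6 h, and the higher share of called genes went from 73.4% to 95.8% and from 50.8% to 88.2%. For 6 h against 3 h that share went from 27.8% to 56.5%, with the median moving by 0.13. All changes are therefore relative to the TMM scale. All 10 listed stem cell markers were above 3 counts in every library, and their summed level was 7105 to 7264 CPM in control, 8150 to 8472 CPM at 3 h and 5768 to 5932 CPM at 6 h. Most of the higher sum at 3 h was Sox2 (2281 and 2601 CPM in the controls, 3847 and 3956 CPM at 3 h). The median log2 fold change of the 10 markers at 3 h was -0.05. At 6 h that median was -0.25, beside 0.04 for all tested genes. All 10 values were then negative and 3 were called lower, beside a background of 14.3% called lower. The 5 measured fibroblast markers summed to between 4.1 and 12.1 CPM, with Col1a2 and Dcn at 0 counts in the control and 3 h libraries. The 6 measured endoderm markers summed to 40.9 to 53.9 CPM in control and 46.7 to 49.8 CPM at 3 h, most of it Sox7. At 6 h the sum was 16.4 to 19.6 CPM. Sox7 had 48.5 and 33.6 CPM in control and 5.05 and 5.63 CPM at 6 h. It was called lower at 6 h, while the other 5 had positive log2 fold changes at low counts, none called. The median of the 6 was 1.28 at 3 h and 0.79 at 6 h. The part of the marker genes in the results below was not tested. In such bulk libraries a change in the make-up of the cells and a change in RNA per cell cannot be told apart.

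At 3 h, 1 of the 10 genes was called, Ccng1, which was lower, beside a background of 4.9% of all tested genes called in either direction, 3.6% higher and 1.3% lower. At 6 h, 2 of the 10 were called, Ccng1 and Zmat3, both lower, against backgrounds of 29% called, 14.8% higher and 14.3% lower. Between 6 h and 3 h edgeR called 0 of the 10, with a background of 1.64%, 0.455% higher and 1.18% lower. Of these 10, 2 had an unadjusted p under 0.05, as did 18.1% of all tested genes, and DESeq2 and limma-voom also called 0. None of the 10 was called higher by edgeR on the TMM scale in any comparison, and the higher values with an unadjusted p under 0.05 were those of Mdm2 at 6 h and of Cdkn1a and Ei24 between 6 h and 3 h. The median log2 fold change of the 10 genes was -0.10 at 3 h, -0.14 at 6 h and -0.08 between 6 h and 3 h, beside medians of 0.02, 0.04 and 0.01 over all tested genes. The 2 control comparisons use the same control libraries. The set is small and was assembled with earlier results of these data known, so these counts are descriptions.

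**Figure D2:**
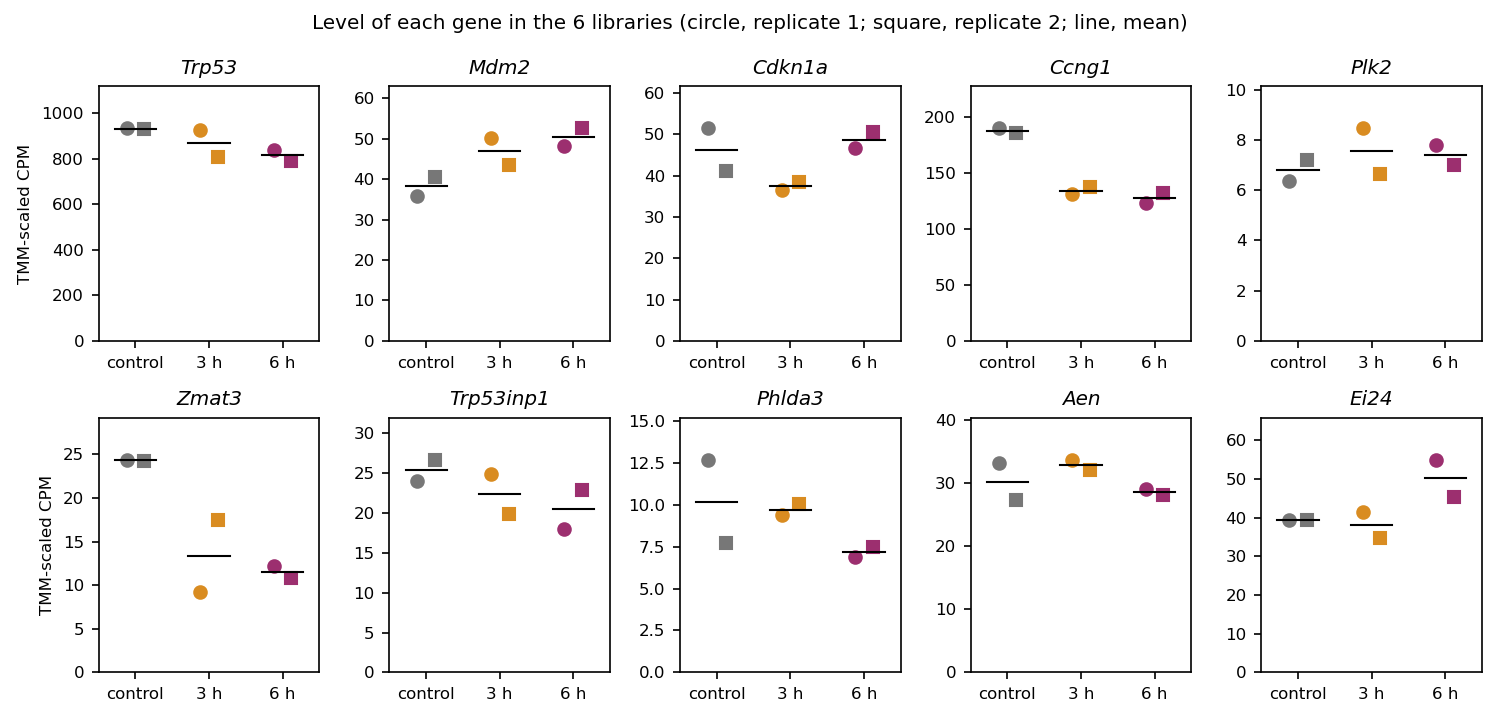
TMM-scaled CPM (y axis, from 0, own scale for each gene) of the 10 genes in the 2 control, 2 3 h and 2 6 h libraries; circles are replicate 1, squares replicate 2 and lines the group means. Trp53, Ccng1 and Zmat3 lie lower in all 4 treated libraries than in both controls, and Mdm2 lies higher in all 4. Trp53 and Mdm2 were not called.

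Trp53 (chr11:69580359-69591873, plus strand) held between 68.9% and 72.9% of their summed counts in each library. Its level was 934 and 932 CPM in the control libraries, 926 and 810 CPM at 3 h, and 841 and 792 CPM at 6 h. Both controls were above all 4 treated libraries, while the 3 h and 6 h ranges overlapped. The log2 fold change was -0.10 ± 0.10 (SE) at 3 h, with a 95% interval from -0.34 to 0.13 (edgeR adjusted p = 0.569). At 6 h it was -0.19 ± 0.10 (SE), with an interval from -0.42 to 0.04 (edgeR adjusted p = 0.193). With library totals alone the signs turned, to 0.12 and 0.17. The order of the levels was control, 3 h and 6 h, with no neighbours differing by the test. A processed pseudogene, Trp53-ps on chromosome 17, is annotated in GENCODE M21 and has 0 rows in the files, so reads shared with it may be counted as Trp53.

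Mdm2 (chr10:117688875-117710758, minus strand), which both answers to p53 and restrains it, had 35.9 and 40.4 CPM in control, 50.2 and 43.5 CPM at 3 h, and 48.2 and 52.5 CPM at 6 h. All 4 treated libraries were above both controls, and the treated groups overlapped each other. The log2 fold change was 0.30 ± 0.15 (SE) at 3 h (edgeR adjusted p = 0.248) and 0.40 ± 0.15 (SE) at 6 h, with a 95% interval from 0.07 to 0.73 (edgeR adjusted p = 0.0689). Neither was called. With library totals alone the 6 h value was 0.76 and was called higher (edgeR adjusted p = 0.00545), 0.36 above the median gene on that scale. Over 17 alternative settings the 6 h value ran from 0.31 to 0.76 and its adjusted p from 0.00545 to 0.291.

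Of the genes for cell cycle arrest, Cdkn1a (chr17:29090976-29100727, plus strand) encodes p21, the inhibitor of cyclin-dependent kinases and the best known p53 target. It had 51.4 and 41.2 CPM in control, 36.6 and 38.5 CPM at 3 h, and 46.8 and 50.5 CPM at 6 h. The 3 h libraries were the lowest of the 6, and the 6 h libraries lay inside the control range. The log2 fold changes were -0.31 ± 0.15 (SE) at 3 h, 0.07 ± 0.15 (SE) at 6 h and 0.37 ± 0.15 (SE) from 3 h to 6 h (edgeR adjusted p = 0.254, 0.767 and 0.234). The interval of the last was 0.03 to 0.72, and no comparison was called under any of the 17 alternatives. Without control replicate 2 the 6 h value against control was -0.08. The levels thus ordered as 6 h, control and 3 h, with no neighbours told apart by the test.

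Ccng1 (chr11:40748552-40755311, minus strand) encodes cyclin G1, which recruits a phosphatase to Mdm2. It had 189 and 186 CPM in control, 131 and 137 CPM at 3 h, and 123 and 132 CPM at 6 h. All 4 treated libraries were below both controls. Ccng1 fell at 3 h, its log2 fold change being -0.48 ± 0.11 (SE), 0.715-fold of control (edgeR adjusted p = 0.0433). It also fell at 6 h, its log2 fold change being -0.56 ± 0.11 (SE), 0.680-fold of control, with a 95% interval from -0.80 to -0.31 (edgeR adjusted p = 0.00727). From 3 h to 6 h the change was -0.07 ± 0.11 (SE; edgeR adjusted p = 0.774), so the treated groups were not told apart. The 3 h call was lost when any 1 of the 6 libraries was left out, with values from -0.52 to -0.45 and adjusted p up to 0.208, and with the replicate number as a block (adjusted p = 0.0596). The 6 h call was lost without 6 h replicate 1 (-0.51) and with library totals alone (-0.20, edgeR adjusted p = 0.199), where the median gene was at 0.40. The 3 h call was also lost with library totals alone and in a fit of only the libraries compared.

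Plk2 (chr13:110395046-110400844, plus strand), a polo-like kinase that p53 and growth signals both induce, had few counts. Its level was 6.37 and 7.21 CPM in control, 8.46 and 6.64 CPM at 3 h, and 7.82 and 7.01 CPM at 6 h. The 3 groups overlapped. The log2 fold change was 0.16 at 3 h (95% interval -0.42 to 0.73) and 0.13 at 6 h (-0.43 to 0.70), with edgeR adjusted p of 0.744 and 0.72. The libraries held 59 to 237 counts of this gene, and these intervals do not separate a modest rise from a modest fall.

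Zmat3 (chr3:32334792-32366014, minus strand) encodes a zinc-finger RNA-binding protein that acts on splicing and mRNA stability downstream of p53. Its levels were 24.4 and 24.3 CPM in control, 9.17 and 17.4 CPM at 3 h, and 12.2 and 10.9 CPM at 6 h. Every treated library was below the controls, and the 3 h replicates differed from each other more than the 6 h replicates did. Zmat3 fell at 6 h, its log2 fold change being -1.07 ± 0.28 (SE), 0.475-fold of control, with a 95% interval from -1.70 to -0.45 (edgeR adjusted p = 0.0212). This was the widest change among the 10 genes in any of the 3 comparisons. At 3 h the value was -0.87 ± 0.28 (SE; edgeR adjusted p = 0.104), and it was -0.48 without 3 h replicate 1 and -1.41 without 3 h replicate 2. It was called at 3 h by DESeq2 (adjusted p = 0.0477) and with no filter on low counts. The 6 h call was lost without 6 h replicate 1 (-1.16, adjusted p = 0.076), without 6 h replicate 2 (-0.99, adjusted p = 0.121) and with library totals alone (-0.72, adjusted p = 0.0824). The change from 3 h to 6 h was -0.21 and turned to 0.33 without 3 h replicate 2, so the treated groups were not ordered.

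The remaining targets act in cell death or survival. Trp53inp1 (chr4:11156431-11174379, plus strand), whose protein promotes p53 activity and autophagy, had 24.0 and 26.6 CPM in control, 24.9 and 19.9 CPM at 3 h, and 17.9 and 22.9 CPM at 6 h. One 3 h library lay inside the control range and the other below it, and both 6 h libraries were below it. The log2 fold changes were -0.18 at 3 h and -0.31 ± 0.19 (SE) at 6 h (edgeR adjusted p = 0.61 and 0.258), and with library totals alone they were 0.0489 and 0.0508.

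Phlda3 (chr1:135766119-135769136, plus strand) encodes a pleckstrin-homology protein that competes with Akt for membrane lipids. It had 12.7 and 7.70 CPM in control, 9.36 and 10.05 CPM at 3 h, and 6.89 and 7.47 CPM at 6 h. The 6 h libraries were below all others, but the controls, with 171 and 63 counts, differed from each other more than either treated pair did. At 6 h the log2 fold change was -0.52 ± 0.27 (SE; edgeR adjusted p = 0.173). The value turned on the controls: it was -0.82 and called without control replicate 2 (adjusted p = 0.0345), and -0.10 without control replicate 1 (adjusted p = 0.804). The 3 h value was -0.09 and turned to 0.33 without control replicate 1.

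Aen (chr7:78895854-78911209, plus strand), an exonuclease that helps to degrade DNA in apoptosis, had 33.1 and 27.2 CPM in control, 33.6 and 32.0 CPM at 3 h, and 29.1 and 28.04 CPM at 6 h. Both treated groups overlapped the controls, and the 6 h libraries lay below the 3 h libraries. Its log2 fold changes were 0.12 at 3 h and -0.08 at 6 h (edgeR adjusted p = 0.681 and 0.714). The 95% intervals ran from -0.23 to 0.46 and from -0.43 to 0.26.

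Ei24 (chr9:36779159-36797393, minus strand) encodes a membrane protein of the endoplasmic reticulum needed for autophagy. It had 39.4 and 39.5 CPM in control, 41.4 and 34.7 CPM at 3 h, and 54.9 and 45.4 CPM at 6 h. The 6 h libraries were above all others, and the 3 h libraries lay on either side of the controls. The log2 fold change was -0.05 at 3 h (edgeR adjusted p = 0.878), 0.35 ± 0.16 (SE) at 6 h (interval -0.01 to 0.71, edgeR adjusted p = 0.13) and 0.40 ± 0.16 (SE) from 3 h to 6 h (interval 0.05 to 0.75, edgeR adjusted p = 0.222). With library totals alone the 6 h value was 0.70 and was called higher (edgeR adjusted p = 0.00932), and it was 0.20 without 6 h replicate 1.

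**Figure D3:**
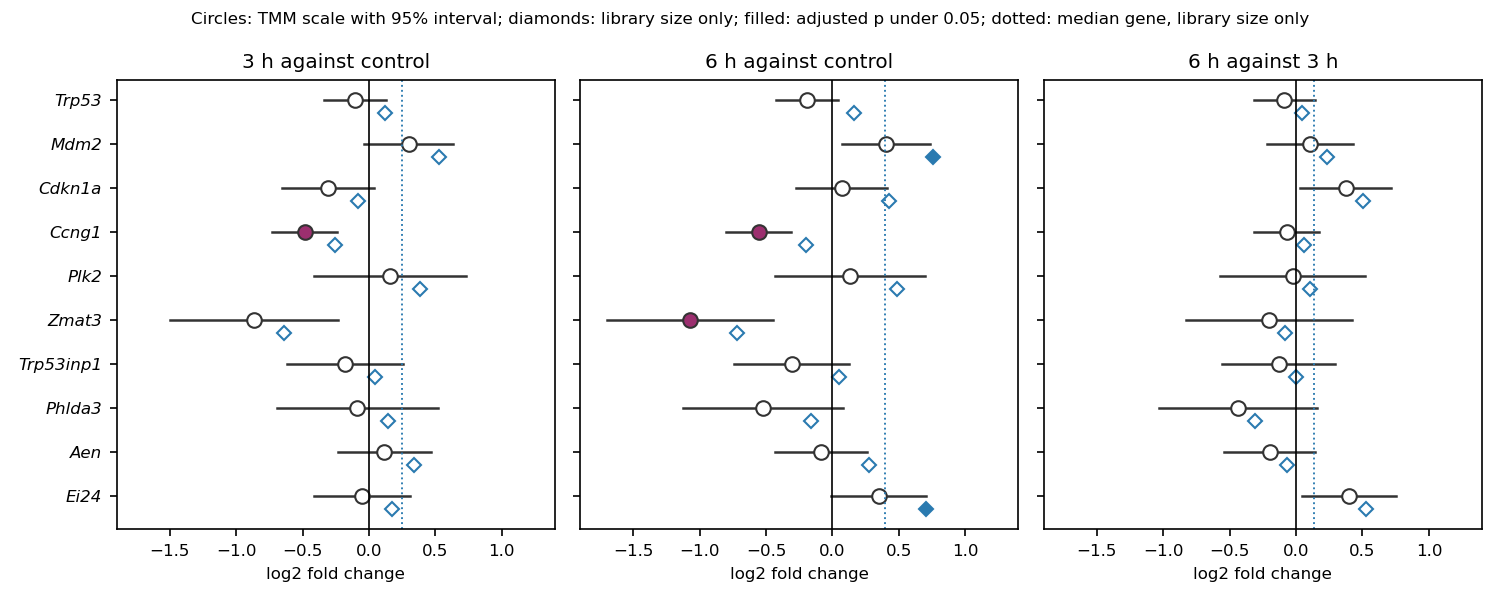
Log2 fold changes (x axis) of the 10 genes in the 3 comparisons. Circles with 95% intervals are on the TMM scale, diamonds use library totals alone, filled symbols have an adjusted p under 0.05, and the dotted line is the median of all genes with library totals alone; on the TMM scale Ccng1 is called at both times and Zmat3 at 6 h, and with library totals alone Mdm2 and Ei24 are called at 6 h instead.

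At 3 h, 5 of the 10 genes had treated and control libraries with no overlap (background 53.2%). There were 7 such genes at 6 h (background 66.8%) and 4 between 6 h and 3 h (background 54.1%). At 6 h these were Trp53, Ccng1, Zmat3, Trp53inp1 and Phlda3 below the controls and Mdm2 and Ei24 above them. The shares are near those of all tested genes.

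Levels of different genes can be set beside each other only per length, and only if reads were counted along the whole transcript. The sources used here do not say whether counting was of whole transcripts or of 3′ ends, and with 3′ ends the order below would not hold. Per kilobase of annotated exons (GENCODE M21, GRCm38), Trp53 had 231 ± 0.321 CPM (SD, n = 2) in control and Ccng1 53.4 ± 0.766. Cdkn1a had 13.03 ± 2.04, Ei24 8.10 ± 0.00707, Mdm2 7.51 ± 0.627 and Phlda3 6.53 ± 2.25 CPM per kilobase. The 4 lowest were Aen with 5.20 ± 0.716, Trp53inp1 with 3.91 ± 0.287, Zmat3 with 2.13 ± 0.00380 and Plk2 with 1.51 ± 0.132 CPM per kilobase. The differences between Phlda3 and its neighbours in this order, Mdm2 and Aen, were smaller than the SD of Phlda3. In both treated groups Zmat3 had the lowest mean, with 1.16 ± 0.512 CPM per kilobase (SD) at 3 h and 1.01 ± 0.0839 at 6 h. Plk2 had 1.68 ± 0.286 and 1.65 ± 0.127. Given the SD of Zmat3 at 3 h, the order of these genes at that time is uncertain. Annotated genes on the opposite strand overlap 7.68% of the exonic length of Cdkn1a and 6.66% of that of Ei24. Without stated strandedness their reads cannot be told apart.

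The genes whose pattern over the 6 libraries was nearest to that of each of 3 members were found by Euclidean distance between log2 CPM centred on the controls, among 5317 genes with a mean of at least 20 CPM. For Trp53 they were Uba3, Myef2 and Anapc15 (distances of 0.09, 0.10 and 0.10). For Cdkn1a they were Ankrd17, Larp7 and Chic2 (0.15, 0.17 and 0.18), and for Mdm2 they were Sgol1, Cdc37l1 and Timmdc1 (0.11, 0.14 and 0.14). No p53 target of the lists used here was among the 9. The floor of 20 CPM left out targets with lower levels, such as Plk2 and Phlda3. Few of the 5317 genes were listed targets, so no conclusion is drawn from their absence.

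A wider list of p53 targets placed the 10 genes in context. Of 42 further targets, 38 were in the files and 36 were tested. At 3 h, 1 rose and 1 fell, 5.56% called beside the background of 4.9%. At 6 h, 6 rose, 4 fell and 26 did not pass, 27.8% called beside the background of 29%. The median log2 fold change at 6 h was 0.01, against 0.04 for all genes. With library totals alone 4 were called higher and 0 lower at 3 h, and 11 higher and 2 lower at 6 h, where the list median was 0.37 beside 0.40 for all genes. Gadd45a, a growth-arrest gene also induced by other stresses, had 111 and 118 CPM in control, 339 and 320 CPM at 3 h, and 378 and 439 CPM at 6 h. It rose by a log2 fold change of 1.53 ± 0.12 (SE) at 3 h and 1.84 ± 0.12 (SE) at 6 h (edgeR adjusted p = 0.000341 and 6.11e-05), and both calls held under all 17 alternatives.

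Ppm1d encodes the Wip1 phosphatase that switches off the p53 response. It had 46.4 and 49.2 CPM in control, 47.8 and 45.7 CPM at 3 h, and 77.1 and 79.8 CPM at 6 h, so only the 6 h libraries stood above the rest. Its log2 fold change at 6 h was 0.72 ± 0.13 (SE; edgeR adjusted p = 0.005). Triap1, a small inhibitor of apoptosis, rose by 0.84 ± 0.14 (SE) at 6 h (edgeR adjusted p = 0.00391), and Rrm2b, the p53-induced ribonucleotide reductase subunit, by 1.46 ± 0.28 (SE; edgeR adjusted p = 0.00645). The call of Rrm2b was lost without 6 h replicate 2 (adjusted p = 0.0517). The other 2 that rose, named after their values were seen, were Pmaip1, the pro-apoptotic factor Noxa, at 1.46, and Ercc5, a DNA repair nuclease, at 1.12.

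Of the targets that fell at 6 h, Sfn, the cell cycle regulator 14-3-3 sigma, had a log2 fold change of -1.73 ± 0.27 (SE; edgeR adjusted p = 0.0031) and Gdf15, a secreted stress factor, one of -1.45 ± 0.36 (SE; edgeR adjusted p = 0.0187). Without control replicate 2, 6 h replicate 1 or 6 h replicate 2 the call of Gdf15 was lost, with an adjusted p of up to 0.103. Rps27l, a paralogue of ribosomal protein S27, fell at 6 h (log2 fold change -0.56, edgeR adjusted p = 0.00478) and at 3 h (-0.41, edgeR adjusted p = 0.0492), the latter call lost without any 1 of the 6 libraries (-0.44 to -0.39, adjusted p up to 0.221). Gtse1, a G2 and S phase protein that restrains p53, fell at 6 h (log2 fold change -0.59, edgeR adjusted p = 0.00545). The 6 h calls of Gtse1 and Rps27l were lost with library totals alone. So was the 3 h call of Rps27l, which was also lost in a fit of only the libraries compared. Bbc3, which encodes the apoptosis activator Puma, had a log2 fold change of 0.23 (95% interval -0.39 to 0.84) and Bax one of -0.48 (-2.01 to 1.06) at 6 h, neither called. Bax had 78.1, 73.2 and 59.4 CPM in replicate 1 and 28.8, 22.3 and 17.9 CPM in replicate 2 of control, 3 h and 6 h, so its replicates differed more than its groups. These 2 genes were named after their values were seen.

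Of 30 listed regulators and relatives of p53, 27 were tested. At 3 h edgeR called 0 higher and 2 lower (7.41% called, background 4.9%), and 8 of the 27 had an unadjusted p under 0.05, as did 24.7% of all tested genes. At 6 h 6 rose and 5 fell (40.7% called, background 29%), with a median log2 fold change of -0.02. On library totals alone, 5 were called higher and 0 lower at 3 h, and 10 higher and 1 lower at 6 h, where the list median was 0.33. Trp73, the p53 relative p73, held 3 and 7 counts in the control libraries, 27 and 55 counts after 3 h, and 159 and 103 counts after 6 h. On the TMM scale it had 0.22 and 0.86 CPM in control and 5.24 and 3.95 CPM at 6 h. Its log2 fold change at 6 h was 3.23 ± 0.64 (SE), called higher (edgeR adjusted p = 0.00763). When 1 library was left out this value ran from 2.42 to 4.34. The count of control replicate 1 was at the detection floor of 3 counts. Wrap53, a telomerase factor whose gene lies 103 bases from Trp53, rose from 7.26 and 5.50 CPM to 15.5 and 14.6 CPM at 6 h, a log2 fold change of 1.22 ± 0.22 (SE; edgeR adjusted p = 0.00567), while Trp53 itself was not called. Their annotated genes do not overlap.

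The p53 ubiquitin ligases Topors and Trim24 rose by 0.81 and 0.68 at 6 h (edgeR adjusted p = 0.0097 and 0.0125), and both calls were lost without 6 h replicate 2 (0.56 and 0.48, adjusted p = 0.0714 and 0.1). Npm1, the nucleolar protein nucleophosmin, fell at 3 h (log2 fold change -0.40, edgeR adjusted p = 0.0379) and at 6 h (-0.67, edgeR adjusted p = 0.00153). Rpl5 and Rpl11, the ribosomal proteins that bind Mdm2 under nucleolar stress, fell at 6 h (log2 fold changes -0.51 and -0.45, edgeR adjusted p = 0.00457 and 0.0119), and Rpl5 also at 3 h (-0.41, edgeR adjusted p = 0.0363). The call of Rpl11 was lost without 6 h replicate 2 (-0.40, adjusted p = 0.0884). At 3 h the calls of Npm1 and Rpl5 were lost without control replicate 2 or any 1 treated library. They were also lost with library totals alone and in a fit of only the libraries compared. The 6 h calls of Rpl5 and Rpl11 were also lost with library totals alone. Genes of this kind are known for processed pseudogenes, and how reads shared with such copies were counted is not given in the sources used here. Chek2, a kinase that phosphorylates p53, was called lower at 6 h (-0.62, edgeR adjusted p = 0.0412). The call was lost in 5 of the 6 fits that left out a library, with values from -0.84 to -0.39. It was kept in 6 of the 11 other alternatives. The losses were with library totals alone, limma-voom, the replicate block, only the libraries compared and libraries thinned to the smallest total. The other called regulators, named after their values were seen, were Prkdc, Sirt1 and Ube4b. Prkdc and Sirt1 were called higher at 6 h (0.68 and 0.35, edgeR adjusted p = 0.0406 and 0.0383). Ube4b was called lower (-0.51, edgeR adjusted p = 0.045). These calls were near the threshold and were not followed under the alternatives. Mdm4, the partner of Mdm2 that also inhibits p53, had a log2 fold change of 1.05 (0.13 to 1.98) that was not called (edgeR adjusted p = 0.0839), and was likewise named after its values were seen.

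The third list held 20 cell cycle genes that are repressed downstream of p21, of which 19 were tested. At 3 h edgeR called 0 higher and 1 lower (5.26% called, background 4.9%), and 8 of the 19 had an unadjusted p under 0.05 beside the 24.7% of all genes. At 6 h 1 rose and 9 fell (52.6% called, background 29%), with a median log2 fold change of -0.30. With library totals alone 6 were called higher and 5 lower at 6 h, and the list median was 0.06 beside 0.40 for all genes. Plk1, a mitotic kinase, had 138 and 152 CPM in control, 101 and 111 CPM at 3 h, and 63.9 and 59.2 CPM at 6 h, with 3 groups that did not overlap. Its log2 fold change at 6 h was -1.23 ± 0.12 (SE; edgeR adjusted p = 0.000485). Cdk1, the mitotic cyclin-dependent kinase, fell at 3 h (log2 fold change -0.47, edgeR adjusted p = 0.0496) and at 6 h (-0.94, edgeR adjusted p = 0.00106), and its 3 h call was lost without any 1 of the 6 libraries (-0.60 to -0.35, adjusted p up to 0.237). Ccnb1, cyclin B1, and Cdc20, an activator of the anaphase-promoting complex, fell at 6 h (log2 fold changes -0.95 and -0.80, edgeR adjusted p = 0.00113 and 0.00379). The 6 h calls of Plk1, Cdk1, Ccnb1 and Cdc20 held under all 17 alternatives, library totals included. The 3 h call of Cdk1 was lost with library totals alone and in a fit of only the libraries compared. Ccnb2, Cenpa, Aurkb, Bub1b and Kif23, named after their values were seen, made up the rest of the 9. Cdc25c, a phosphatase that activates Cdk1, was called higher (0.67, edgeR adjusted p = 0.0478). The call was lost in 5 of the 6 fits that left out a library. It was kept in 6 of the 11 other alternatives, DESeq2 and limma-voom being among those that lost it. Over the same samples the log2 fold change of Cdkn1a mRNA at 6 h was 0.07 (interval -0.27 to 0.41) and was not called. The level of p21 protein was not measured, and the part of p21 in the changes of this list was not tested.

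**Figure D4:**
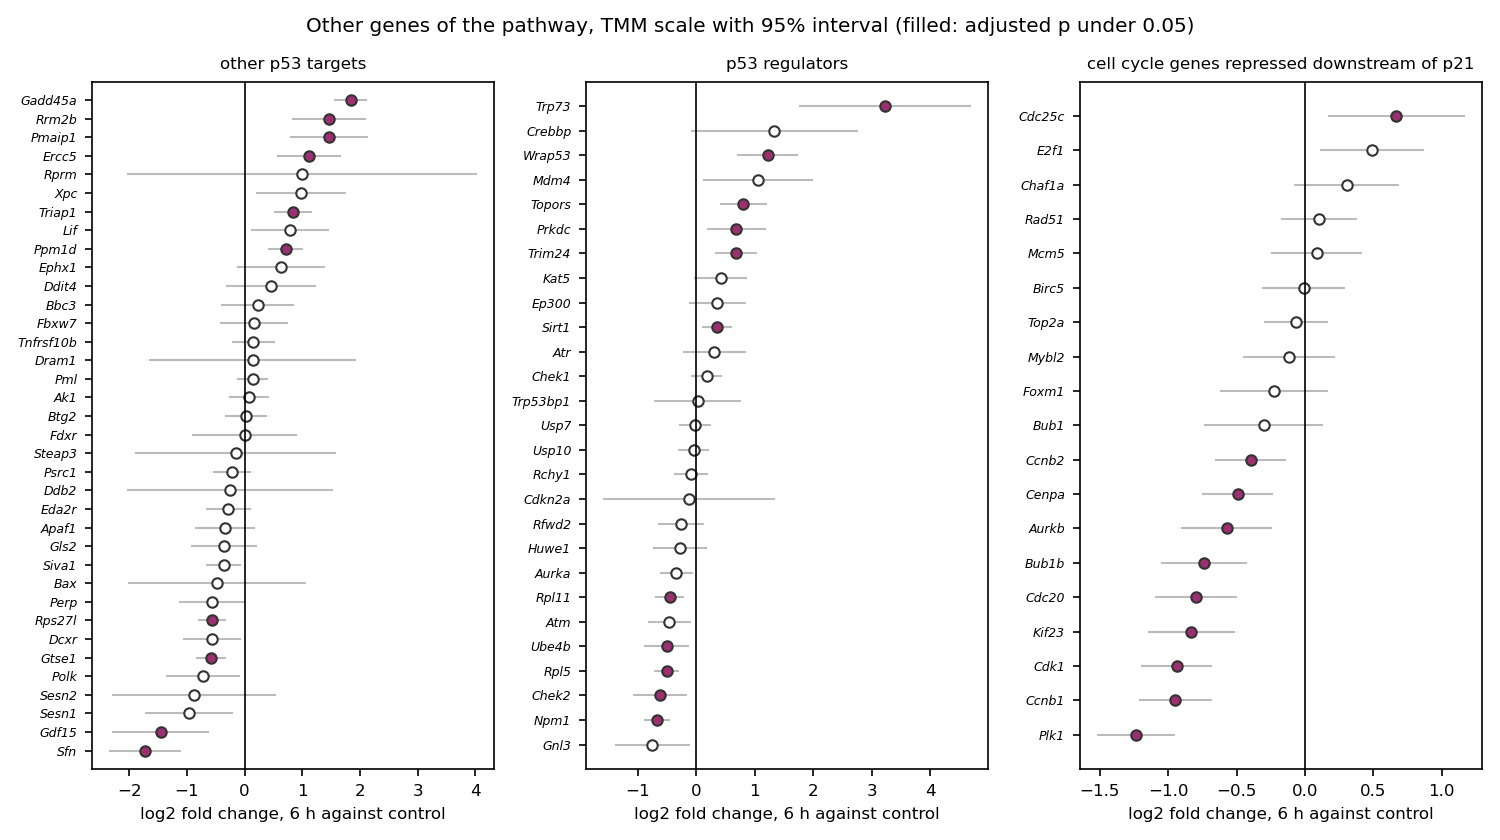
Log2 fold change at 6 h against control (x axis, with 95% intervals, TMM scale) of the tested genes of 3 lists: 36 further p53 targets, 27 regulators and relatives, and 19 cell cycle genes repressed downstream of p21. Filled points have an adjusted p under 0.05; the targets and regulators hold filled points on both sides of 0, and 9 of the 10 filled cell cycle genes lie below 0.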

How the data were processed

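The authors deposited raw counts per gene, 1 semicolon-separated file per library, as the values show: 0 entries were not whole. Per the submitters' processing notes the genome build was mm10; the aligner, counter, annotation, strandedness and use of molecular identifiers are not given in the sources used here. Genes were kept by edgeR's filterByExpr (at least 10 counts in the median library, as CPM, in 2 libraries, and 15 in total). Counts were TMM-scaled and fitted with group means over all 6 libraries (3 residual degrees of freedom) by edgeR 4.0.16 (glmQLFit and glmQLFTest) in R 4.3.3. Standard errors are the absolute log2 fold change over the square root of F, and 95% intervals use the total degrees of freedom. limma 3.58.1 (limma-voom) and DESeq2 1.42.0 served as alternatives. The detection floor was 3 counts, 0.11 to 0.32 CPM, and covers counting error only.

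The 10 members, the lists and the tests were chosen with earlier results of these data known. Named in the text are all 10 members, up to 4 called genes of each list with the smallest p in each direction at 3 h and at 6 h, and the 3 nearest patterns for each of 3 members; others are marked where they appear. Within each of the 3 groups the 2 libraries differed by more than counting noise (chi-square per degree of freedom 18.7 to 27.7).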

Additional observations from a re-analysis of the deposited data

Results flagged for a closer look

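None of the 10 genes differed between 6 h and 3 h by the direct test. In the lists around them edgeR called 2 of 36 further targets (5.56%), 0 of 27 regulators and 2 of 19 cell cycle genes (10.5%). The background was 1.64% of all tested genes. These 4 genes were also called at 6 h against control, a comparison that uses the same 6 h libraries. Their values are therefore descriptions. Ppm1d was higher at the later time by 0.75 on the log2 scale (edgeR adjusted p = 0.0283). Plk1, with -0.78 (adjusted p = 0.0211), Sfn, with -1.32 (adjusted p = 0.0489), and Ccnb1, with -0.57 (adjusted p = 0.0489), were lower. Every one of the 4 calls was lost when either a 3 h or a 6 h library was left out. The lone library of a group is then assumed to vary like the other groups. The values without 1 library ran from 0.71 to 0.78 for Ppm1d, from -0.84 to -0.72 for Plk1, from -1.60 to -0.97 for Sfn and from -0.70 to -0.45 for Ccnb1.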

How the results depend on the processing

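At 3 h the count over all genes was 1373 with library size only, 1816 with no filter, 1437 with DESeq2 and 218 with only the libraries compared, and 108 to 1033 when 1 library was left out. The members called at 3 h were then 0, 2, 2 and 0, also 0 with the replicate block, and 0 to 0 without 1 library. At 6 h leaving out 1 library gave 1312 to 3578 genes and 0 to 3 members. Between 6 h and 3 h the count over all genes was 1063 with no filter, 667 with DESeq2, 508 with limma-voom, 126 with the replicate block and 563 with only the libraries compared, and 14 to 595 without 1 library. Over all tested genes the differences between replicates 1 and 2 correlated little between groups (-0.02 to 0.09). Single genes such as Bax kept their replicate order in all 3 groups, so a pairing is not excluded. Among the named genes the replicate block took away the 3 h calls of Ccng1, Rps27l, Rpl5, Npm1 and Cdk1. It also took away the 6 h calls of Chek2 and Cdc25c, and the calls of Sfn and Ccnb1 between 6 h and 3 h.

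Signs turned only for member values that were not called. Library size only moves all genes alike, by 0.23 at 3 h, 0.36 at 6 h and 0.13 between 6 h and 3 h, and with it 3 h values became 0.12 (Trp53), 0.0489 (Trp53inp1), 0.14 (Phlda3) and 0.18 (Ei24), 6 h values 0.17 (Trp53), 0.0508 (Trp53inp1) and 0.27 (Aen), and 6 h against 3 h values 0.0426 (Trp53), 0.0578 (Ccng1), 0.11 (Plk2) and 0.0018 (Trp53inp1). Thinning gave 0.0012 for Ei24 at 3 h. Leaving out 1 library gave, at 3 h, -0.0288 to 0.32 (Plk2), -0.38 to 0.33 (Phlda3), -0.0120 to 0.26 (Aen) and -0.19 to 0.0720 (Ei24), and at 6 h -0.0760 to 0.24 (Cdkn1a) and -0.21 to 0.0670 (Aen). For 6 h against 3 h it gave -0.18 to 0.0160 (Trp53), -0.19 to 0.16 (Plk2), -0.59 to 0.33 (Zmat3) and -0.32 to 0.0429 (Trp53inp1). The cause of the changes without 1 library was not tested. Of the 23 calls of named genes at 6 h, 14 held without each library in turn and 15 under the 11 other alternatives. Depth limits Plk2 and Phlda3 most, with 59 and 63 counts in control replicate 2.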
